A study of Homo sapiens with 29 samples.

Results

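Transcripts of 9 genes of the EGFR ligand system were followed across PC9 lines treated with an EGFR inhibitor, with and without activation of the receptor AXL. The genes were chosen by name and function, with no threshold on a measured value but with earlier results of these data known. They are 7 ligands of the ERBB receptors (AREG, EREG, EPGN, BTC, TGFA, HBEGF and NRG1) and 2 membrane proteases that release such ligands from the cell surface (ADAM10 and ADAM17), out of 35579 genes in the deposited table. PC9 is an EGFR-mutant lung adenocarcinoma cell line that is sensitive to erlotinib. The study used 10 lines, which were parental cells (PAR), their AXL knockout made with a CRISPR guide against the kinase domain (KO), and 8 populations of KO cells transduced with lentiviral AXL. The inserted AXL was wild type (WT), kinase dead (KD) or carried a tyrosine-to-phenylalanine change (Y634F, Y643F, Y698F, Y726F, Y750F, Y821F). Cells were left untreated, given erlotinib at 1 μM for 24 h (E), or given erlotinib with 300 ng/mL of the AXL-activating antibody AF154 for 24 h (EA). All lines carried the mutant EGFR of PC9, and all transduced lines shared the KO background, were sorted as populations and still held some cells without AXL.

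There were 29 polyA RNA libraries, 10 untreated, 10 with E and 9 with EA, each from 1 line under 1 treatment. EA in the KO line was not analysed here. The lines therefore stood in as replicates of a treatment although they carry different receptors, and the spread between them is the only error available. Values are TPM, a share of all transcripts that is scaled to transcript length, so they can be set side by side between genes. Between libraries, a change in TPM is a change in share, which also depends on the other transcripts. It is not a measured change in transcripts per cell. How many reads lie behind a TPM value cannot be recovered from it, and the sequencing depth is unknown. In bulk RNA, fewer cells of a kind and less RNA per cell cannot be told apart. The time that untreated dishes spent in culture is not given in the sources used here. AXL was lowest in KO (92.4 TPM untreated, 79.3 TPM after E), against 217 to 852 TPM in the 27 other libraries, so its transcript was not lost. The epithelial marker EPCAM lay between 286 and 439 TPM, and all 6 epithelial markers were present in every library. Of 3 lung lineage markers, NKX2-1 did not exceed 0.354 TPM and SFTPB 1.09 TPM, and NAPSA lay between 0.585 and 5.32 TPM. Of 4 blood cell markers, CD3E was at 0 TPM in every library, PTPRC did not exceed 1.003 TPM and LYZ 1.09 TPM, whereas CD68, a lysosomal protein also used as a macrophage marker, lay between 27.8 and 68.1 TPM. The summed level of 3 endothelial markers was 5.45 to 10.2 TPM untreated and 2.05 to 6.80 TPM with E, led by PECAM1 (4.99 to 9.60 TPM untreated and 1.03 to 3.84 TPM with E). The sum of 4 fibroblast markers was 15.8 to 36.5 TPM untreated and 37.8 to 62.5 TPM with E, led by the collagen gene COL1A1, while COL3A1 did not exceed 0.0620 TPM and PDGFRB had a mean of 0.191 TPM untreated and 1.21 TPM with E. With E, CD68 fell by 0.69 on the log2 scale (limma adjusted p = 4.02e-07) and COL1A1 rose by 1.03 (adjusted p = 4.26e-09). When genes down to a mean of 1 TPM were tested, PECAM1 fell by 1.27 (adjusted p = 3.11e-07), CDH5 rose by 0.53 (adjusted p = 0.0124) and NAPSA rose by 0.50 (adjusted p = 0.0250). The part of these genes in the changes below was not tested.

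ERBB ligands are made as membrane-anchored precursors that a protease cuts to release the soluble growth factor. The receptors are EGFR, ERBB2, ERBB3 and ERBB4, which signal as pairs. AREG, TGFA and EPGN bind EGFR, whereas HBEGF, EREG and BTC bind both EGFR and ERBB4, and NRG1 binds ERBB3 and ERBB4. ADAM17 is the main sheddase of AREG, EREG, EPGN, TGFA and HBEGF, and ADAM10 is that of BTC and EGF. Several of these ligands are induced by the signaling that EGFR itself starts, which gives an autocrine loop in many carcinomas.

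EPGN, EREG, AREG and BTC are neighbors on chromosome 4 of GRCh38, in the order EPGN (74308473 to 74315307), EREG (74365143 to 74388751), AREG (74445134 to 74455009) and BTC (74744759 to 74794686), by GENCODE release 29. The span is 486 kb. BTC is on the minus strand and lies 289.8 kb from AREG, whereas the other neighbors are on the plus strand and lie 49.8 and 56.4 kb apart. HBEGF is on chromosome 5 (140332843 to 140346631, minus). The promoters below are shown because EPGN, EREG, AREG, HBEGF and TGFA were lower with erlotinib in every line and BTC, a neighbor of 3 of them, was not. Each runs from 250 bases before to 50 bases after the RefSeq start on GRCh38.p14, on the strand of the gene. Capitals mark exact matches, on either strand, to any of 5 motifs. They are TATAAA, a core promoter element, and TGACGTCA, the cyclic AMP response element. The others are GGGCGG, the GC box, as well as the core of ETS factor sites, which is CCGGAA, and the AP-1 site, which is TGANTCA.
EPGN promoter, chr4:74308220-74308519, plus: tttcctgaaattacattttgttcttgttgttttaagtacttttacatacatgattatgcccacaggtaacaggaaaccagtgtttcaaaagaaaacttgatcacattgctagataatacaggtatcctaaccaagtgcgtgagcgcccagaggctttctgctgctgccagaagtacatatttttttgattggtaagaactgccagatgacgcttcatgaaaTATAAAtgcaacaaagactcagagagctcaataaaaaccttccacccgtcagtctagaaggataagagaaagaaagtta
EREG promoter, chr4:74364895-74365194, plus: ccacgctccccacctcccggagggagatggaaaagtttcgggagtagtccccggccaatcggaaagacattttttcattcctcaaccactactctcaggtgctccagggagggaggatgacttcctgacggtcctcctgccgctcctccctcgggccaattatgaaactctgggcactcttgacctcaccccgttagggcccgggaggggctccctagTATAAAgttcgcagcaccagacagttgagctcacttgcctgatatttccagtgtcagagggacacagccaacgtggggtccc
AREG promoter, chr4:74444886-74445185, plus: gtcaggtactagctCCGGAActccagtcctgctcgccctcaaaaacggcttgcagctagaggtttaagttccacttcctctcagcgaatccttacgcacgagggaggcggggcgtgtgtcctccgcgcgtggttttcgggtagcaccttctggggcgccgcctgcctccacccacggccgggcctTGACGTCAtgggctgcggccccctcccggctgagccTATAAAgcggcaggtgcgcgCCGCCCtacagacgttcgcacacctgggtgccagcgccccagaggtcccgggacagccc
BTC promoter, chr4:74794474-74794773, minus: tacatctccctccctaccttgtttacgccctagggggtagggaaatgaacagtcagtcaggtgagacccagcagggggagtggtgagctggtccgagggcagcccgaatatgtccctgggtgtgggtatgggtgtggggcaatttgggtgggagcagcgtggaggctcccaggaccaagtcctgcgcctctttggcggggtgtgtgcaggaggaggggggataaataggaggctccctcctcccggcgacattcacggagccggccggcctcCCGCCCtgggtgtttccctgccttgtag
HBEGF promoter, chr5:140346554-140346853, minus: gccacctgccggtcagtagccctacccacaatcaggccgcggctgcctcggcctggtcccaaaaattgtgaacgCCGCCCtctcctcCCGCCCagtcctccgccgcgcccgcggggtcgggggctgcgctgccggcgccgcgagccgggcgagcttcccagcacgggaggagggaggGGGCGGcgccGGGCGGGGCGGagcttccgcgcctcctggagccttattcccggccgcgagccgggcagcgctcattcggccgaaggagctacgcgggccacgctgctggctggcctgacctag
TGFA upstream promoter, chr2:70553777-70554076, minus: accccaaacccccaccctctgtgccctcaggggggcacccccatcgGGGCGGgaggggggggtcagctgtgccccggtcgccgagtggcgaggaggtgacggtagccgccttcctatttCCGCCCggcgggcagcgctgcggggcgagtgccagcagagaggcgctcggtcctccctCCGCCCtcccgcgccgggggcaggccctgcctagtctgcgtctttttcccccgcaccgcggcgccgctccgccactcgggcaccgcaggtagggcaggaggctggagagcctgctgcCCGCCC
TGFA downstream promoter, chr2:70553397-70553696, minus: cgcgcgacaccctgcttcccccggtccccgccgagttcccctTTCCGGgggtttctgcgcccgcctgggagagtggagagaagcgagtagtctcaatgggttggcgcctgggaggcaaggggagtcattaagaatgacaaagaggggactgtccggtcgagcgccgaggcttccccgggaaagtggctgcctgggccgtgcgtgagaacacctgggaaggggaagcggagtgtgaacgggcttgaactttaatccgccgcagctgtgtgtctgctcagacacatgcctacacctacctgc
TATAAA stood on the gene strand at bases -29 to -24 from the start in AREG and EPGN and at -32 to -27 in EREG. It was in 11.5% of 35116 RefSeq promoters of this length on either strand, and the windows of BTC, HBEGF, TGFA, ADAM10 and ADAM17 held no match. The AREG window also held TGACGTCA at -65 to -58, which was in 1.85% of all promoters, and no other window of these genes did. CCGGAA, in 17.2% of all, was matched in AREG at -236 to -231, in the downstream TGFA window and, 2 times, in ADAM17, which rose with E. GGGCGG, in 44.95% of all promoters, was matched 5 times in HBEGF, 4 times in the upstream TGFA window, 3 times in ADAM17 and 1 time each in AREG, BTC and ADAM10. The HBEGF matches at -63 to -58 and -58 to -53 share 1 base. The motifs of the genes that fell were thus shared in part with those that rose or did not pass the test. TGANTCA, in 7.71% of all, was matched in no window of the 8 genes (the NRG1 window was not analysed here). A match is a description of letters and not a site shown to be used. The motifs were chosen after these promoters were read, so the shares over all promoters do not measure how unusual a match is. The GC content of the windows ranged from 37.7% in EPGN to 75.3% in the upstream TGFA window, against a median of 58.7% over all promoters.

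TGFA was the main ligand transcript in every library. Untreated cells held 57.0 ± 2.75 TPM of TGFA (SD, n = 10), 17.3 ± 2.09 of HBEGF, 8.24 ± 2.82 of AREG, 6.34 ± 3.88 of EPGN, 2.77 ± 0.547 of BTC, 1.48 ± 0.900 of NRG1 and 0.803 ± 1.02 of EREG. The ranges of TGFA, HBEGF and AREG did not overlap except that the AREG value of PAR (15.5 TPM) lay above the HBEGF values of PAR (13.3) and WT (14.8). AREG and EPGN were not separated by the spread of the lines, and neither were NRG1 and EREG. The sum of the 7 ligands was 93.9 ± 8.10 TPM untreated (n = 10), 52.7 ± 5.88 with E (n = 10) and 54.1 ± 6.28 with EA (n = 9). TGFA made up 60.9 ± 3.75% of that sum untreated, 77.3 ± 3.65% with E and 74.8 ± 3.12% with EA. Without TGFA the sum was 36.9 ± 6.71 TPM untreated, 12.0 ± 2.93 with E and 13.7 ± 2.93 with EA. Among the sheddases, untreated ADAM10 (129.8 ± 9.62 TPM) was above every ligand, and ADAM17 (38.8 ± 2.94 TPM) lay between TGFA and HBEGF. In transcripts annotated as protein coding alone, the ADAM10 mean (49.1 TPM) was below that of TGFA (55.6 TPM).

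**Figure D1:**
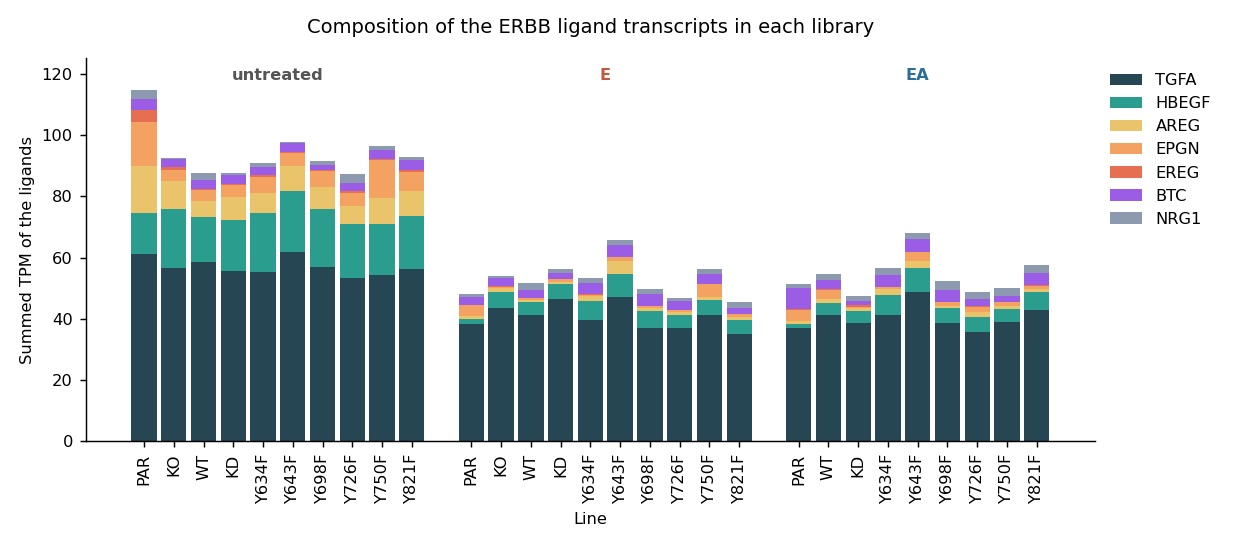
Stacked bars of the 7 ligand genes in each of the 29 libraries, with summed TPM on the vertical axis and the lines grouped by treatment on the horizontal axis. The summed level ran from 87.3 to 115 TPM untreated, from 45.6 to 65.7 TPM with E and from 47.4 to 68.1 TPM with EA, and TGFA was the tallest segment in every bar.

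The first comparison asked what erlotinib did to the ligands and their sheddases in the 10 lines. AREG, HBEGF, EPGN and TGFA fell and ADAM10 and ADAM17 rose, whereas BTC and NRG1 did not pass the test. Values were fitted as log2(TPM + 1) with limma, with the line as a block and Benjamini-Hochberg adjusted p under 0.05 as the call. This scale understates the change of genes with low TPM. The methods of the study remove genes under 10 TPM, and 3 members (TGFA, ADAM10 and ADAM17) had a mean of at least 10 TPM over all libraries. All 3 were called, where 79.0% of 9085 genes were called, 36.4% higher and 42.6% lower. With a minimum of 1 TPM, 8 members were tested and 6 were called, 2 higher and 4 lower, where 71.8% of 14111 genes were called, 35.5% higher and 36.3% lower. The share of members called (6 of 8) was thus near that of all genes. The median change of the 6 ligands tested was -1.08, against 0.01 over all genes at that minimum. EREG was under 1 TPM on average and was tested alone. Changes of AREG, HBEGF, EPGN, BTC and NRG1 below come from the fit with the minimum of 1 TPM. Those of TGFA, ADAM10 and ADAM17 come from the fit with the minimum of 10 TPM. Overlap between treatments is described below for the members only, and the share of all genes without overlap was not counted.

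AREG encodes amphiregulin, a ligand of EGFR alone. Untreated, it was lowest in WT (5.25 TPM), had a median of 7.99 TPM and was highest in PAR (15.5 TPM). With E the lowest value was 0.631 TPM in KD, the median 0.963 TPM and the highest 4.26 TPM in Y643F. Every E value lay below every untreated value, and the 9 lines other than Y643F did not exceed 1.46 TPM with E. The log2 change was -2.06 (SE 0.17, limma adjusted p = 9.18e-08), with a fall in 10 of 10 lines, and the mean TPM was 6.43-fold lower. Only 96 of the 14111 genes had a lower fitted change.

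HBEGF encodes heparin-binding EGF-like growth factor. Its untreated values ran from 13.3 TPM in PAR over a median of 17.3 TPM to 19.8 TPM in Y643F. With E they ran from 1.81 TPM in PAR over a median of 4.94 TPM to 7.51 TPM in Y643F, so the same lines marked both ends and the groups did not overlap. The change was -1.67 (SE 0.09, limma adjusted p = 7.99e-10), with a fall in all 10 lines and a mean 3.53-fold lower. On this scale 205 genes had a lower change.

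EPGN encodes epigen, a ligand of EGFR. Untreated values were lowest in WT (3.63 TPM), had a median of 4.89 TPM and were highest in PAR (14.5 TPM), with Y750F next at 12.4 TPM. With E the lowest value was 0.371 TPM in KO and the median 0.772 TPM, while Y750F (4.18 TPM) and PAR (3.46 TPM) again stood above the other lines, none of which exceeded 1.06 TPM. The groups overlapped through Y750F, whose E value was above the lowest untreated values. The transcripts behind the Y750F values are given with the lines below. Within lines EPGN fell in 10 of 10, by 1.68 on the log2 scale (SE 0.10, limma adjusted p = 3.97e-09), and the mean was 4.77-fold lower.

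EREG encodes epiregulin. It was at 3.68 TPM in untreated PAR and between 0.258 and 0.781 TPM in the 9 other untreated lines, and between 0.0173 and 0.274 TPM with E. The counting error of levels this low is unknown, and the KO value with E (0.274 TPM) was above the untreated WT value. EREG was lower with E in 10 of 10 lines. The mean TPM was 6.56-fold lower, with PAR supplying the highest untreated value. The mean difference within lines was -0.56 on the log2(TPM + 1) scale and -1.71 with a pseudocount of 0.1 (two-sided exact sign-flip permutation test over 10 lines, p = 0.00195, the smallest this test can give, not adjusted), and -0.40 without PAR (exact sign-flip p = 0.00391, the smallest for 9 lines).

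TGFA (chromosome 2, 70447280 to 70554193, minus) encodes transforming growth factor alpha, a ligand of EGFR. Its untreated values were close together, from 53.4 TPM in Y726F over a median of 56.5 TPM to 61.9 TPM in Y643F. With E they ran from 35.1 TPM in Y821F over a median of 40.4 TPM to 47.2 TPM in Y643F, with no overlap. TGFA fell by 0.48 on the log2 scale (SE 0.04, limma adjusted p = 1.39e-07) in 10 of 10 lines, a mean 1.40-fold lower. In log2 terms this was smaller than the changes of AREG, HBEGF and EPGN, and 2804 of 14111 genes had a lower change. In TPM, the fall of the TGFA mean, from 57.0 to 40.7 TPM, was larger than that of any other ligand.

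BTC, which encodes betacellulin, ran from 1.60 to 3.78 TPM untreated (median 2.79 TPM) and from 1.76 to 3.82 TPM with E (median 2.87 TPM). The groups overlapped over nearly their whole ranges, with 6 lines higher and 4 lower. The change was 0.05 (95% interval -0.24 to 0.34, limma adjusted p = 0.774). The log2(TPM + 1) scale limits how far a gene this low can fall, so the interval is not set against the other ligands. In TPM, the BTC mean was 1.05-fold higher, where those of AREG, EPGN and HBEGF were 6.43-fold, 4.77-fold and 3.53-fold lower. NRG1, the neuregulin gene (chromosome 8, 31639386 to 32767959, plus), ran from 0.450 to 2.98 TPM untreated (median 1.26 TPM) and from 0.724 to 2.31 TPM with E (median 1.57 TPM). It was higher in 8 lines, and lower in Y726F and PAR, the highest lines when untreated. The change was 0.06 (95% interval -0.33 to 0.45, limma adjusted p = 0.786).

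ADAM10 lies on chromosome 15 (58588807 to 58749978, minus) and ADAM17 on chromosome 2 (9488486 to 9556732, minus). ADAM10 ran from 119 to 147 TPM untreated (median 127 TPM) and from 181 to 203 TPM with E (median 188 TPM), without overlap. It rose by 0.55 (SE 0.04, limma adjusted p = 2.94e-09) in 10 of 10 lines, a mean 1.46-fold higher. ADAM17 ran from 35.6 TPM in PAR to 45.7 TPM in WT untreated (median 38.2 TPM) and from 40.8 TPM in PAR to 57.9 TPM in Y643F with E (median 47.2 TPM). Its groups overlapped, and it rose in 9 of 10 lines, with a difference of -0.03 in WT, which had the highest untreated value. The change was 0.30 (SE 0.05, limma adjusted p = 5.36e-05), a mean 1.24-fold higher. The ratio of ADAM10 to ADAM17 TPM was 3.36 ± 0.340 untreated and 3.98 ± 0.347 with E (SD, n = 10). It depends on the transcripts counted. In protein-coding transcripts alone, the means of ADAM10 and ADAM17 were closer, at 49.1 and 29.9 TPM untreated and 70.9 and 36.1 TPM with E. Among the 14111 genes, 17.1% had a higher change than ADAM10 and 29.4% a higher change than ADAM17.

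**Figure D2:**
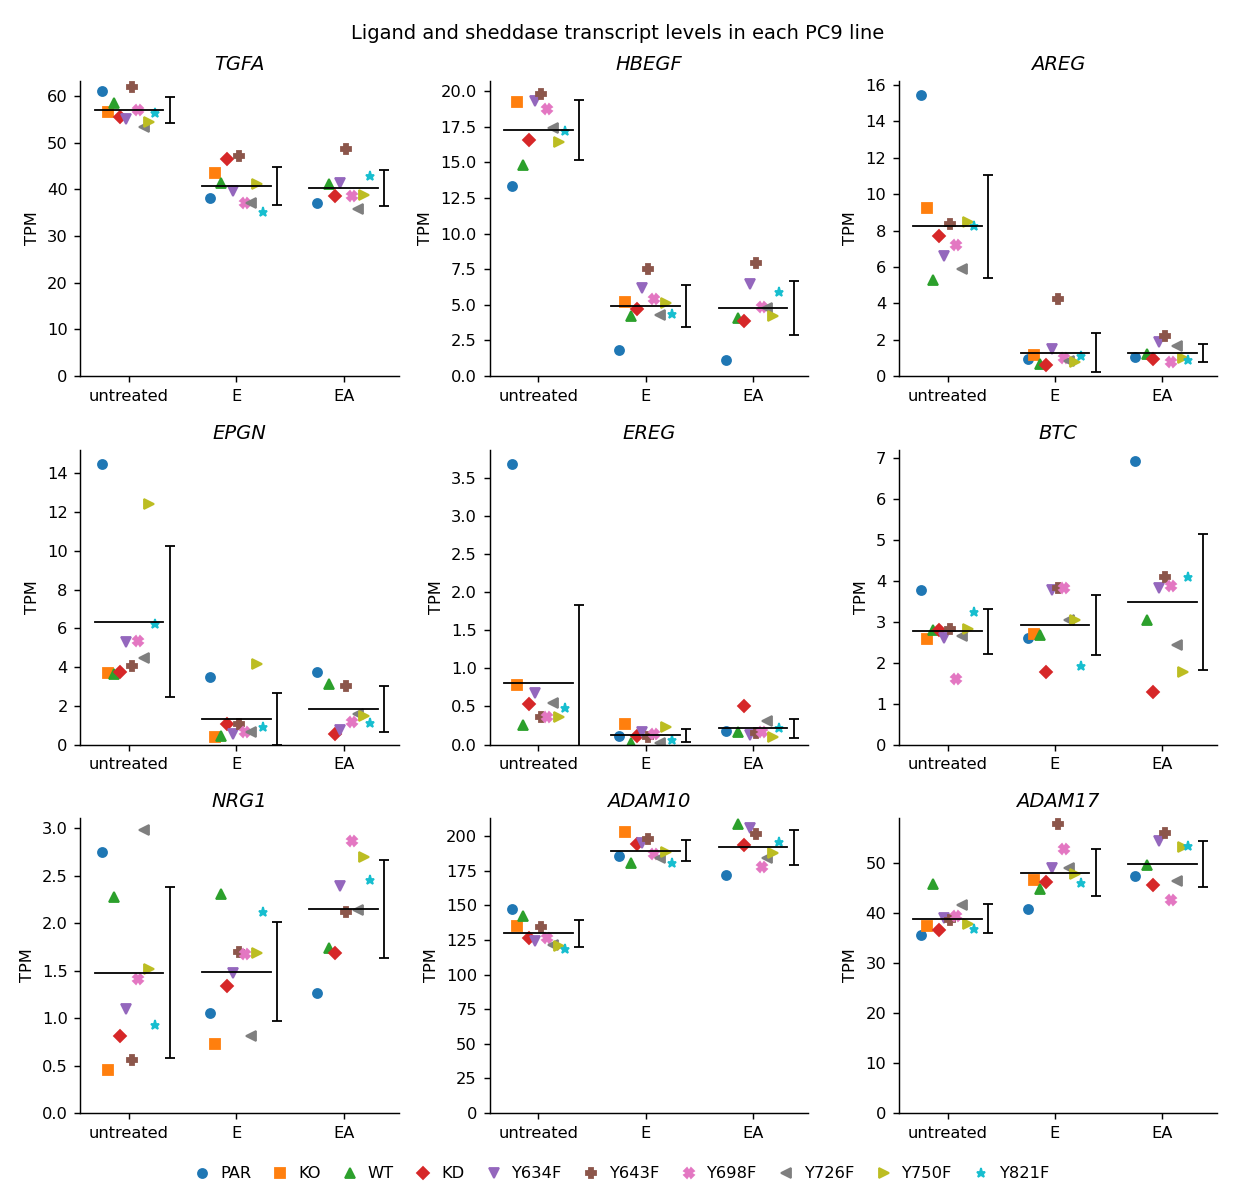
TPM of the 9 genes (vertical axes, linear and starting at 0) in each line (symbols) by treatment, with horizontal lines at the means and bars of 1 SD over the lines (n = 10, 10 and 9), drawn down to 0 at most. AREG, HBEGF and TGFA with E or EA lay below every untreated value and ADAM10 above, whereas BTC and NRG1 overlapped throughout. The share of all genes without such overlap was not counted, and 79.0% of 9085 genes were called between E and untreated cells.

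The second comparison asked what activating AXL added to erlotinib, in the 8 lines other than KO and KD. No member was called. With the minimum of 10 TPM, 214 of 9085 genes (2.36%) were called and 0 of 3 members, and with the minimum of 1 TPM 67 of 14111 genes (0.475%) and 0 of 8 members. The count of 214 genes varied with the lines used, from 10 without Y634F to 188 without Y726F. No member had an unadjusted limma p under 0.05 in these fits except NRG1, at p = 0.0332. The median change of the 8 members was 0.05, against 0.01 over all genes. The E libraries also enter the first comparison, so the comparisons are not independent.

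For the ligands that fell with erlotinib, EA values were close to those with E. AREG with EA ran from 0.765 to 2.18 TPM over the 9 lines (median 1.07 TPM), HBEGF from 1.15 to 7.90 TPM (median 4.80 TPM) and TGFA from 35.8 to 48.6 TPM (median 38.9 TPM). All EA values of these genes lay below all untreated ones. The change between EA and E was 0.04 for AREG (95% interval -0.29 to 0.37, limma adjusted p = 0.922, higher in 5 of 8 lines), -0.02 for HBEGF (-0.23 to 0.18, p = 0.926, higher in 4 of 8) and 0.03 for TGFA (-0.07 to 0.13, p = 0.724, higher in 4 of 8). AREG differed most in Y643F, where it was 4.26 TPM after E and 2.18 TPM after EA, and in Y726F, where it went from 0.848 to 1.64 TPM. TGFA in Y821F went from 35.1 to 42.9 TPM, a difference of 0.28, whereas the other 7 lines lay between -0.08 and 0.06.

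EPGN was higher with EA than with E in 7 of 8 lines, by 0.36 on average, but the interval ran from -0.16 to 0.88 (limma adjusted p = 0.470). WT went from 0.426 to 3.12 TPM and Y643F from 1.06 to 3.03 TPM, while Y750F went the other way, from 4.18 to 1.46 TPM. The leading transcript, EPGN-202, went from 0.426 to 0.548 TPM in WT, from 0.341 to 0.672 in Y643F and from 0.935 to 1.46 in Y750F. The larger shifts of these lines were assigned to other transcripts. Examples are EPGN-203 in WT (0 to 1.26 TPM), EPGN-204 in Y643F (0 to 2.24) and EPGN-209 in Y750F (2.75 to 0). NRG1 was higher in 7 of 8 lines, with a change of 0.31 (95% interval 0.03 to 0.59, limma adjusted p = 0.247; exact sign-flip permutation p = 0.0391, not adjusted). Over these 8 lines it had a median of 1.68 TPM with E and 2.26 TPM with EA, and 2.97% of genes had a higher change. BTC was higher in 6 of 8 lines, by 0.18 (-0.20 to 0.55, adjusted p = 0.647), with PAR at 2.59 TPM with E and 6.92 TPM with EA. EREG differed by 0.09 (exact sign-flip permutation p = 0.156), at no more than 0.511 TPM in any EA library.

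ADAM10 ran from 172 to 209 TPM with EA and ADAM17 from 42.7 to 56.1 TPM. Their changes against E were 0.03 (95% interval -0.05 to 0.11, limma adjusted p = 0.693) and 0.06 (-0.07 to 0.18, adjusted p = 0.627). In the KD line, whose AXL has no kinase activity, TGFA was 46.5 TPM after E and 38.6 TPM after EA, a difference of -0.26 that lay below those of all 8 other lines. KD differences for the other members were 0.25 for AREG, 0.45 for EREG, -0.24 for HBEGF, -0.43 for EPGN, -0.28 for BTC, 0.20 for NRG1, -0.01 for ADAM10 and -0.02 for ADAM17. The KD values rest on 1 library each and have no replicate error.

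Set beside untreated cells, without a test, EA means over 9 lines were 6.36-fold lower for AREG, 3.56-fold lower for HBEGF, 3.62-fold lower for EPGN and 1.41-fold lower for TGFA. In the same way they were 1.49-fold higher for ADAM10 and 1.28-fold higher for ADAM17. The mean log2 difference was -1.98 for AREG, -1.72 for HBEGF, -1.40 for EPGN, -0.49 for TGFA, 0.57 for ADAM10 and 0.34 for ADAM17. Each of these had its direction in 9 of 9 lines.

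**Figure D3:**
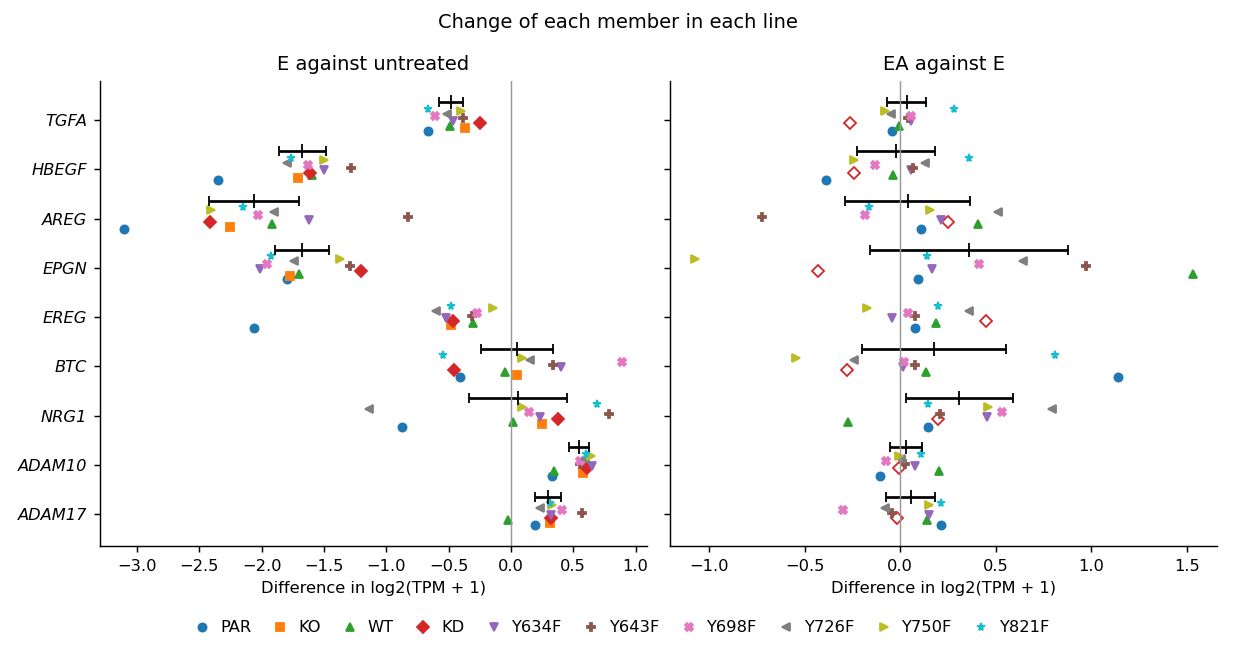
Difference in log2(TPM + 1) of each gene in each line (symbols) between E and untreated cells (left) and between EA and E (right), with limma estimates and 95% intervals in black above the symbols (none for EREG, which was not in the fit). Open diamonds are KD, which is not part of the estimate on the right, and the axes differ in range. AREG, HBEGF, EPGN, EREG and TGFA were below 0 in all 10 lines on the left, and the intervals on the right include 0 apart from that of NRG1 (0.03 to 0.59).

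The lines differed in which ligands they held. PAR, the only line that had gone through neither the knockout nor transduction, had the lowest HBEGF in all 3 treatments (13.3, 1.81 and 1.15 TPM), and the largest fall with E, of 2.35 on the log2 scale against 1.29 to 1.79 in the other lines. It also had the highest untreated AREG, EPGN, EREG and BTC. The untreated AREG of PAR (15.5 TPM) stood above the 5.25 to 9.22 TPM of the other 9 lines, but with E it was 0.917 TPM, within their range. With E, AREG in PAR fell by 3.10 on the log2 scale and EREG fell by 2.07, the largest of the 10 lines. Its ADAM10 rise, 0.33, was the smallest of the 10 lines.

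Y643F was at the other end for HBEGF. It had the highest HBEGF and the highest TGFA in all 3 treatments, the highest AREG and ADAM17 with E and with EA, and the smallest falls of AREG (0.83 on the log2 scale) and HBEGF (1.29) with E. Its mean deviation from the treatment means was 0.62 for AREG, 0.49 for HBEGF and 0.20 for TGFA. For AREG the deviation was 0.06 untreated, 1.30 with E and 0.51 with EA. Y750F was high for EPGN, at 12.4 TPM untreated and 4.18 TPM with E, against no more than 6.22 and 1.06 TPM in the 8 lines other than PAR and Y750F. Much of this was assigned to minor transcripts, EPGN-206 (5.23 TPM) and EPGN-209 (2.38 TPM) untreated and EPGN-209 (2.75 TPM) with E. The leading transcript, EPGN-202, was at 3.76 and 0.935 TPM in Y750F. Over all lines it ran from 1.76 to 4.67 TPM untreated and from 0.179 to 1.33 TPM with E, so it did not set Y750F apart. KO had the lowest NRG1 in both its libraries (0.450 and 0.724 TPM) and was within the range of the transduced lines for HBEGF and TGFA. Each of these statements rests on 1 library per line and treatment, and differences between lines were not tested.

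**Figure D4:**
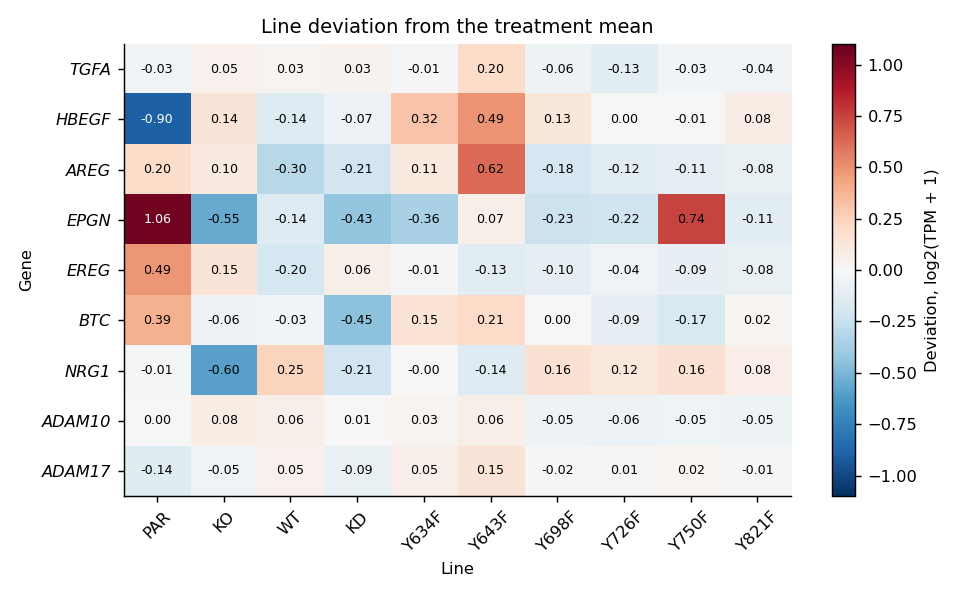
Mean deviation of each line (columns) from the mean of its treatment on the log2(TPM + 1) scale, averaged over 3 treatments (2 for KO), for the 9 genes (rows), with the value printed in each cell. PAR was low for HBEGF (-0.90) and high for EPGN (1.06), Y643F was high for AREG (0.62) and HBEGF (0.49), and Y750F was high for EPGN (0.74). The leading transcript EPGN-202 of Y750F lay within the range of the other lines in each treatment.

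The transcripts behind these sums were few for some genes and many for others. HBEGF-201 held 97.5% of untreated HBEGF and 98.7% of HBEGF with E. EREG-203, annotated as retaining an intron, held 23.7% of untreated EREG, 56.7% with E and 63.4% with EA. AREG-201 held 99.3% of untreated AREG and 92.8% with E, where the AREG of PAR (0.917 TPM) was assigned to AREG-202 and AREG-201 was listed at 0. TGFA was spread over TGFA-201 (31.4 ± 2.33 TPM untreated and 21.9 ± 2.41 with E), TGFA-202 (13.4 ± 1.90 and 10.04 ± 2.27) and TGFA-203 (6.63 ± 2.13 and 3.65 ± 2.45), all protein coding and all lower in mean with E. Of ADAM10, 37.8% of untreated TPM was in transcripts annotated as protein coding. The leading one, ADAM10-202, is annotated as subject to nonsense-mediated decay and went from 44.2 ± 5.89 TPM untreated to 63.9 ± 2.17 TPM with E. The protein-coding transcripts of ADAM10 summed to 49.1 TPM untreated and 70.9 TPM with E, in the direction of the whole gene. The leading transcripts of ADAM17 are both protein coding, with ADAM17-201 at 11.2 ± 8.18 TPM untreated, 3.74 ± 5.65 with E and 13.7 ± 12.4 with EA, and ADAM17-203 at 18.4 ± 6.66, 32.1 ± 5.96 and 23.8 ± 12.8 TPM. The SD of ADAM17-201 was as large as its differences, and short reads are divided among overlapping transcripts by estimate. Differences between single transcripts were not tested.

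For each member of at least 10 TPM, the 3 genes most like it over the 29 libraries were found by Pearson's r of log2(TPM + 1). For TGFA they were TIMP3 (r = 0.94), which encodes an inhibitor of ADAM17, SNX5 (0.94) and RRN3 (0.93). For ADAM10 they were KDM5B (0.98), CDK14 (0.98) and UBL3 (0.97), and for ADAM17 they were CEP70 (0.94), SPATS2 (0.93) and SLC33A1 (0.92). These libraries share lines and treatments. After the treatment means were taken out, r was 0.64 for TIMP3, 0.63 for SNX5 and 0.64 for RRN3 with TGFA, and it lay between 0.70 and 0.83 for the neighbors of the sheddases. Among the members, AREG followed TGFA (r = 0.90) and HBEGF (0.89), and without the treatment means these values were 0.41 and 0.33. AREG and EREG, 56.4 kb apart, had r = 0.69, or 0.43 without the treatment means.

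The receptors moved in different directions with erlotinib. EGFR, the target of the drug, went from 192 ± 25.4 TPM to 129.6 ± 11.1 TPM, a log2 change of -0.56 (SE 0.08, limma adjusted p = 8.37e-06). ERBB3, a receptor of NRG1, rose from 36.5 ± 3.70 to 86.9 ± 9.06 TPM, by 1.23 (SE 0.06, adjusted p = 4.92e-11), and ERBB2, which has no ligand of its own, from 57.4 ± 3.44 to 84.8 ± 4.22 TPM, by 0.55 (SE 0.03, adjusted p = 6.10e-10). ERBB4 did not exceed 0.191 TPM in any library, so that transcripts of the receptor shared by HBEGF, EREG, BTC and NRG1 were near 0. Of the 4 ligands outside the members, EGF (4.36 TPM untreated, 4.19 with E) and NRG4 reached a mean of 1 TPM and neither passed the test, NRG3 was at 0 TPM in every library, and NRG2 did not exceed 0.368 TPM.

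Of 15 genes that process or traffic the ligands or the sheddases, 13 were kept at 10 TPM, of which 5 rose, 6 fell and 2 did not pass the test (median 0.05, against -0.04 over all genes). Over all genes 36.4% were higher and 42.6% lower, so the share called (11 of 13) was near that of all genes. TIMP3 fell by 1.46 and TSPAN5, a tetraspanin partner of ADAM10, by 1.004. RHBDL2, a rhomboid protease, rose by 1.20 and RHBDF1, which encodes the iRhom1 partner of ADAM17, by 0.89. All 5 of the other membrane ADAMs listed passed the test, as did 79.0% of all genes. ADAM12 rose by 0.40 and ADAM9 by 0.37, and ADAM8 fell by 1.13 and ADAM15 by 0.34 (median of the 5 genes -0.27). Of 5 feedback inhibitors of ERBB receptors, 2 were kept at 10 TPM, where ERRFI1, an inhibitor of EGFR, fell by 0.87 and RNF41, a ubiquitin ligase for ERBB3, rose by 0.30. At 1 TPM all 5 were tested, with 2 higher and 3 lower (median -0.77).

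Genes known to follow ERK activity showed the largest falls of the lists. Of 14 listed, 7 were kept at 10 TPM and 13 at 1 TPM. All of these fell (7 of 7, median -3.00, and 13 of 13, median -2.38), where 42.6% and 36.3% of all genes fell. The minimums apply to the mean over all libraries. With E, mean levels of ETV4 (5.30 TPM), ETV5, PHLDA1, DUSP4 and SPRED2 were under 10 TPM, and those of FOSL1 (18.3 TPM) and CCND1 were above. Those of DUSP6, SPRY4 and EGR1 were under 1 TPM with E. The list was chosen with earlier results known, so these shares describe it and do not test it against all genes. FOSL1 fell by 3.58, ETV4 by 3.49, and PHLDA1 by 3.24, and ETV5 fell by 2.999. Of 16 growth factors of other families, 12 were kept at 10 TPM, of which 7 rose, 2 fell and 3 did not pass the test (median 0.23), where 79.0% of all genes passed it. TGFB2 rose by 2.25, PDGFB by 1.26 and INHBA by 1.24, and VEGFA fell by 1.48. Between EA and E, none of the 42 genes of the 6 lists kept at 10 TPM passed the limma test, and the list medians lay between -0.03 and 0.04, against 0.02 over all genes. An unadjusted p under 0.05 was reached by 12 of these 42 genes, and by 1895 of all 9085 genes (20.9%).

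**Figure D5:**
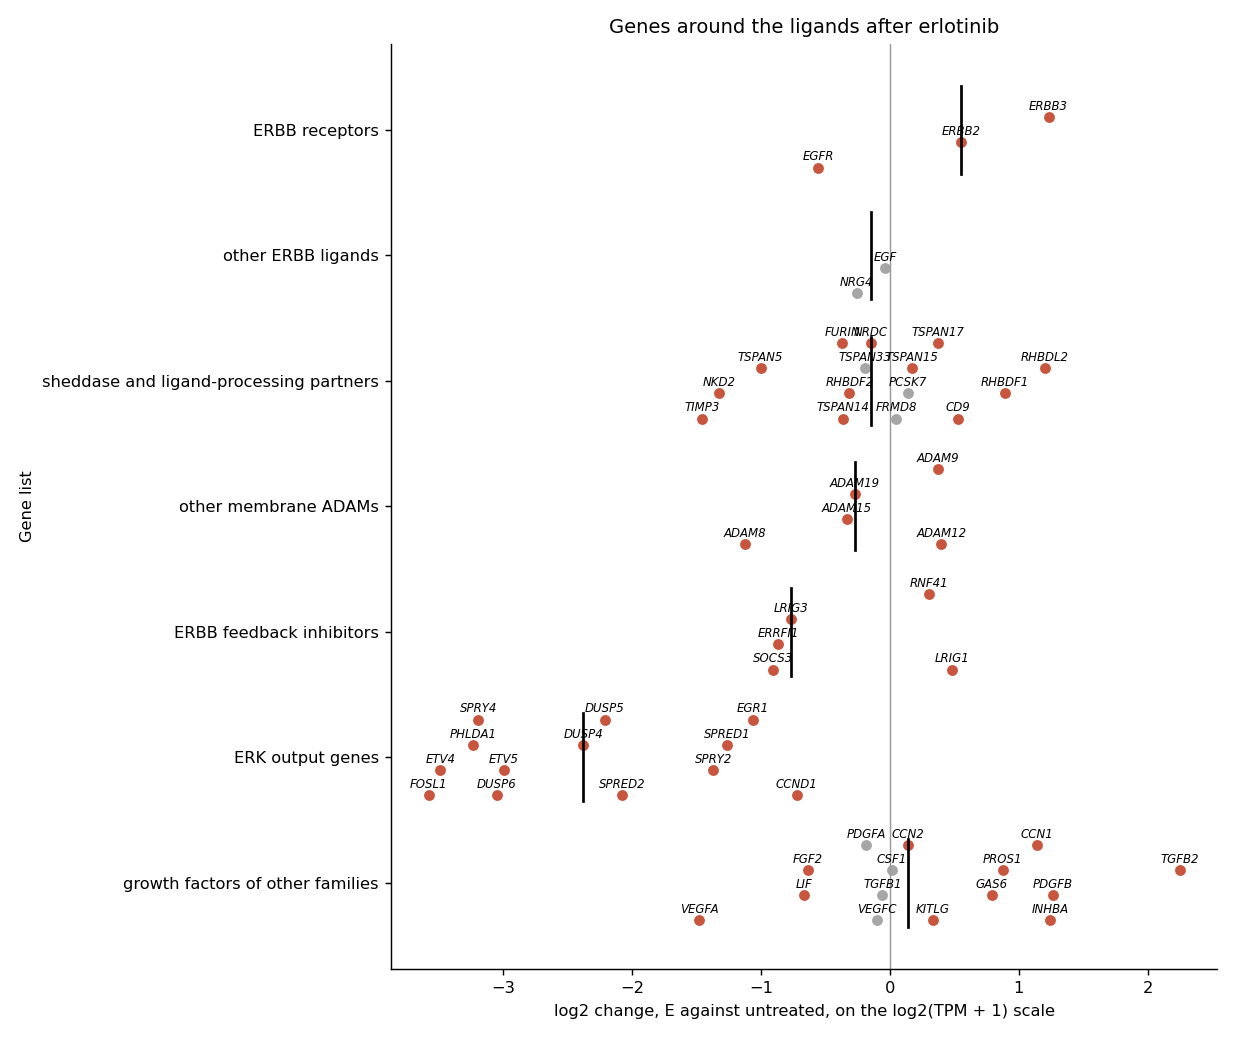
Log2 change between E and untreated cells of the genes around the ligands, by list (vertical axis), for genes that averaged at least 1 TPM over 29 libraries. Red points passed the limma test, grey points did not, and black bars are the list medians, which lie at -2.38 for ERK output genes and 0.55 for the receptors.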

How the data were processed

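PolyA RNA of 10 PC9 lines was sequenced in 29 libraries. The authors deposited TPM per transcript. Per the submitters' processing notes, kallisto and GRCh38 were used, and the kallisto version and the annotation are not given in the sources used here. Of 188753 transcripts, 169797 were matched by identifier to GENCODE release 29 and summed to 35579 genes, holding 97.0 to 97.4% of the TPM of each library. The 18956 others were not used. TPM keeps no depth, so precision comes from the spread between lines, which may be technical.

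Values were log2(TPM + 1). Genes that averaged at least 10 TPM over all libraries were fitted with limma 3.58.1 in R 4.3.3 (trend, line as a block, Benjamini-Hochberg, threshold 0.05), and members below that with a minimum of 1 TPM. The line pairs the libraries, since they are the same cells. E and untreated were compared in 10 lines, EA and E in 8. EREG, under 1 TPM, had only an exact sign-flip test. The limma step was tested on simulated log2 values with independent normal errors. The members and lists were chosen with earlier results of these data known. Named were all members, AXL, the ERBB receptors, the 3 genes most correlated with each member of at least 10 TPM, and up to 4 genes per list with the largest change past the threshold between E and untreated. Other ERBB ligands and cell type markers are named from their lists outside that rule. Alternatives were other pseudocounts, minimums, scalings and transcript sets, no block, KD included, exact tests, and leaving out each line. Promoters came from RefSeq (GRCh38.p14) for 8 of 9 members, and the motifs were chosen after these were read. Descriptions used Python 3.11.15 with pandas 2.3.3.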

Additional observations from a re-analysis of the deposited data

Results flagged for a closer look

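In 8 of 45 sets of values examined, the highest or lowest line stood far from the rest by Dixon's criterion. The sets were each member's TPM in each treatment and its change in each comparison. Independent normal sets would give about 2.25. These sets share libraries, and the untreated EREG of PAR enters both as a level and in a change. The count of 8 can therefore not be read against 2.25. PAR accounted for 5 of the 8 sets. Its untreated AREG was 15.5 TPM, against 5.25 to 9.22 TPM in the 9 other lines, and its untreated EREG was 3.68 TPM, against 0.258 to 0.781 TPM. The EREG change with E in PAR was -2.07 on the log2 scale, against -0.60 to -0.14 in the other lines, and its HBEGF change was -2.35, against -1.79 to -1.29. BTC with EA was 6.92 TPM in PAR, against 1.27 to 4.10 TPM in the 8 other lines.

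The AREG level with E was 4.26 TPM in Y643F, against 0.631 to 1.46 TPM in the 9 other lines. TGFA differed between EA and E by 0.28 on the log2 scale in Y821F, against -0.08 to 0.06 in the 7 other lines of that comparison. EREG with EA was 0.511 TPM in KD, against 0.0945 to 0.304 TPM in the 8 other lines. Of the KD value, 0.469 TPM was EREG-203, annotated as retaining an intron, and 0.0422 TPM was the protein-coding EREG-201. Each of these is 1 library, or 1 pair of libraries, with no repeat of the line.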

How the results depend on the processing

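Every member called between E and untreated (AREG, HBEGF, EPGN, TGFA, ADAM10, ADAM17) kept its direction and call under each alternative that gave a value, as did the unadjusted EREG difference. AREG lay between -2.76 and -1.95, HBEGF between -1.86 and -1.60, EPGN between -2.42 and -1.64, TGFA between -0.51 and -0.40, ADAM10 between 0.53 and 0.61, ADAM17 between 0.26 and 0.37 and EREG between -1.71 (pseudocount of 0.1) and -0.40 (without PAR). The number of members called was 3 with a minimum of 10 TPM and 6 with 1 TPM. A minimum of 10 TPM in every library gave no value for the low members. The uncalled changes of BTC and NRG1 changed sign with quantile normalization (-0.0715 and -0.0935) and ranged from -0.0483 to 0.111 and from -0.0223 to 0.191 when each line was left out in turn. Between EA and E, leaving out each line gave -0.0270 to 0.150 for AREG, -0.0791 to 0.0281 for HBEGF, -0.00284 to 0.0486 for TGFA, 0.193 (without WT) to 0.565 (without Y750F) for EPGN and 0.0384 (without PAR) to 0.279 (without Y750F) for BTC, and ADAM10 was -0.0365 with protein-coding transcripts only. No limma fit called a member between EA and E, whereas exact sign-flip tests, not adjusted, gave p = 0.0391 for NRG1 and, without Y750F, p = 0.0469 for EREG (0.13). The count of all genes called between EA and E, 214, was 67 with a minimum of 1 TPM, 361 with protein-coding transcripts, 9 without the replicate block and 120 with KD included, and ranged from 10 (without Y634F) to 188 (without Y726F). It was 18 without Y643F, 55 without PAR or Y698F, 76 without Y750F, 94 without Y821F and 131 without WT. The cause was not tested. Depth is unknown, so low values of EREG, NRG1 and BTC carry a counting error that could not be given.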
